A study of Mus musculus with 12 samples.

Results

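The genes of cholesterol and fatty acid synthesis were followed after DNA damage in MEFs, fibroblasts grown from mouse embryos. The set holds 36 genes, given as a list of symbols and not picked by a cutoff on a measured value. The list was chosen with earlier results of these data known. All 36 were found among the 16425 genes of the deposited table. That table writes them in capitals (HMGCS1, SQLE, FASN, SREBF2) where mouse style is used here. By role, 17 encode enzymes of sterol synthesis, 10 encode enzymes of fatty acid synthesis, and 9 encode regulators of the pathway or sterol transporters. Wild-type MEFs had been infected with sg10, a guide RNA aimed at the p53 response element of Pvt1, or with sgtom, a non-targeting guide. The 6 libraries described here, 3 with sg10 and 3 with sgtom, all came from MEFs kept for 24 h in 0.5 µM doxorubicin, which poisons topoisomerase II, breaks DNA and activates p53. The 6 untreated samples of the 12 in the series were not analysed here, so no value below shows what doxorubicin did. The labels do not say how many clones or embryos the cells came from, how much of the response element was changed, or what a replicate number stands for beyond a biological replicate. The medium held 15% fetal bovine serum, which carries lipoprotein cholesterol.

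Cells make cholesterol from acetyl-CoA through mevalonate, isoprenoid units, squalene and lanosterol, and they make fatty acids by building acetyl-CoA into palmitate, which is then lengthened and desaturated. Both branches are switched on by the SREBP transcription factors, encoded by Srebf1 and Srebf2. The precursors sit in the endoplasmic reticulum membrane with the escort protein Scap, and Insig proteins hold the complex there when sterols are plentiful. When sterols fall, Scap carries the SREBPs to the Golgi, where proteases free the part that enters the nucleus and binds sterol regulatory elements in promoters, often with the factor NF-Y at a CCAAT box close by. In mouse liver, p53 has been described to raise Abca1, a cholesterol exporter, and to restrain the maturation of SREBP-2. Nuclear SREBP protein is not read by these data, which are RNA levels.

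Promoters of 28 of the 36 genes were found in RefSeq windows from 250 bases before to 50 bases after a start site (build GRCm38.p6). No window was given for Fdps, Fdft1, Sqle, Scd1, Scd2, Fads1, Stard4 or Npc1. The 250 bases before the start of 3 sterol genes and 1 fatty acid gene are shown because they carry the motif the set shares, the CCAAT box, and the single match to the sterol motif. Capitals mark CCAAT or its reverse complement ATTGG and, in Hmgcs1, the sterol regulatory element core TCACNCCAC, and each sequence reads 5′ to 3′ on the strand of the gene. The window of Hmgcs1 is chr13:119690101-119690350 on the plus strand, that of Mvk chr5:114444019-114444268 on the plus strand, that of Msmo1 chr8:64733579-64733828 on the minus strand and that of Fasn chr11:120824548-120824797 on the minus strand.
Hmgcs1: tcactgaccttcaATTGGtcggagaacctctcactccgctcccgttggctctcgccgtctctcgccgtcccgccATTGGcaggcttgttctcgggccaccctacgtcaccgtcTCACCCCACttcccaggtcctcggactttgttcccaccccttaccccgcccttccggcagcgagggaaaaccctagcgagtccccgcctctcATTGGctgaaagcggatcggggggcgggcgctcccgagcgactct
Mvk: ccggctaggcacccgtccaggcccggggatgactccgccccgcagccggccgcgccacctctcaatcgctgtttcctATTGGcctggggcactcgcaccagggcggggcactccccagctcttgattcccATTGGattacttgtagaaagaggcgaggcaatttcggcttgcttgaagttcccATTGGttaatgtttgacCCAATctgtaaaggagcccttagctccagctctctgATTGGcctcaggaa
Msmo1: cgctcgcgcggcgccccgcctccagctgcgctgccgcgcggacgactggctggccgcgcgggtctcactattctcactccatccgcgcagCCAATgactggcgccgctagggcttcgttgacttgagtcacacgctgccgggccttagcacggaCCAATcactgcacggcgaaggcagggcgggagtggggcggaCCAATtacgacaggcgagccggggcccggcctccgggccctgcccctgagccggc
Fasn: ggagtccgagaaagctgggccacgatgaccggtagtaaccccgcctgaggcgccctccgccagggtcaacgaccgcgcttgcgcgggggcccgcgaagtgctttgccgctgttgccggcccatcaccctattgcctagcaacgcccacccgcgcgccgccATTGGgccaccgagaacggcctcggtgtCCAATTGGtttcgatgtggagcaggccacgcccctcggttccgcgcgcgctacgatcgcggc

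In the full windows, on either strand, CCAAT stood in 23 of 28 genes, against 42.7% of the 10504 tested genes with a window. All 14 sterol synthesis genes with a window held it, as did 4 of 7 fatty acid genes and 5 of 7 regulators and transporters. The GC box GGGCGG, which the factor Sp1 binds, was in 23 of 28 genes, against 68.7% of tested genes. The E-box CACGTG, which SREBPs and Myc can both bind, was in 7 of 28 (Hsd17b7, Sc5d, Dhcr7, Elovl5, Insig1, Scap and Abca1), against 11.5%. The full-length sterol regulatory element, of 10 bases, was in 0 of 28, against 0.067%. The shorter core TCACNCCAC, which lies within that motif and was added after the exact matches were seen, was in 1 of 28, Hmgcs1, against 1.40%. These are matches of letters and not measured binding, and some genes have several windows.

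**Figure D1:**
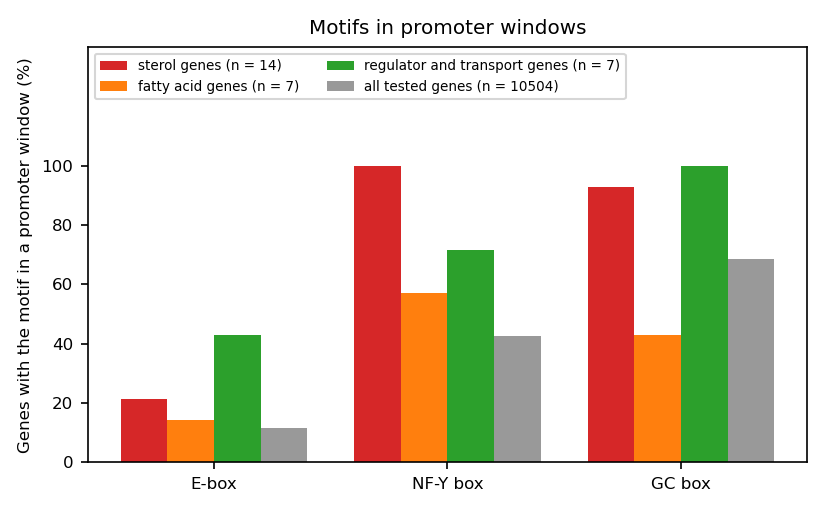
Share of genes (vertical axis, percent) whose RefSeq promoter windows hold the E-box, the CCAAT box of NF-Y or the GC box on either strand. Bars stand for 14 sterol genes, 7 fatty acid genes, 7 regulators and transporters and the 10504 tested genes with a window. The CCAAT bar is the tallest for sterol genes, with 14 of 14, against 42.7% of tested genes.

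Reads assigned to genes numbered 50091418 to 66132317 per library with sg10 and 52445969 to 61550435 with sgtom. The 36 genes drew between 347 and 71852 reads per library, and counting error is relatively larger for those with few reads, such as Tm7sf2 and Pmvk. Summed levels of 8 fibroblast markers lay between 36967 and 38103 CPM (reads scaled by the authors to library size) with sg10 and between 38217 and 38767 CPM with sgtom, and hepatocyte and epithelial markers were at 5.37 CPM or less. The 3 endothelial markers listed of 4 summed to 49.2 to 72.7 CPM with sg10 and 58.7 to 68.9 CPM with sgtom, mostly from Kdr, while Pecam1 stayed at 0.605 CPM or less. Pvt1, the targeted long noncoding RNA, had 8.04, 5.93 and 5.40 CPM with sg10, against 16.4, 11.7 and 12.1 CPM with sgtom. Its level fell by 0.999 on the log2 scale with sg10 (adjusted p = 1.40e-04 in limma with replicate number as a block, and not past the threshold without it). Myc, the neighbouring gene for a growth-promoting transcription factor, had 43.5, 48.6 and 53.8 CPM with sg10, against 28.7, 27.0 and 35.6 CPM with sgtom, a log2 fold change of 0.67 (blocked adjusted p = 5.49e-04).

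None of the 36 lipid genes passed the test between guides, in the same libraries in which Pvt1 was lower with sg10. Limma called 0 of the 36 at an adjusted p under 0.05, and 0 had an unadjusted p under 0.05. Over all 14440 genes tested it called 0%, and 0.346% had an unadjusted p under 0.05. Samples with equal replicate numbers varied together, and with replicate number as a block limma called 0 of the 36, against 0.0346% of all genes, while 3 of the 36 had an unadjusted p under 0.05, against 6.68% of all genes. EdgeR on whole reads recovered from the CPM called 0 of the 36 (0 with an unadjusted p under 0.05, and 3 with the block), and DESeq2 called 0 (0 unadjusted). In the authors' deposited table the lowest p among the 36 was 0.458. These are bulk RNA levels, in which fewer cells of a type and less RNA per cell cannot be told apart.

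The size of a guide effect that the data allow is narrow once the numbers are paired. Log2 fold changes of sg10 over sgtom ran from −0.10 (Insig2) to 0.14 (Elovl6). With the block, the 95% intervals of all 36 lay between −0.22 and 0.28, and those of 33 lay within 0.25 of 0 on either side. Their median half-width was 0.10 with the block and 0.31 without it. In direction, 25 of the 36 were higher with sg10, against 49.7% of all genes tested, with a median log2 fold change of 0.02 beside a median of −0.00040 for all genes. The levels of sg10 and sgtom overlapped for all 36, where 3.61% of all genes did not overlap (2.15% higher and 1.47% lower with sg10). In all 3 pairs 6 of the 36 were higher with sg10 and 3 were lower, against 14.4% and 14.4% of all genes.

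**Figure D2:**
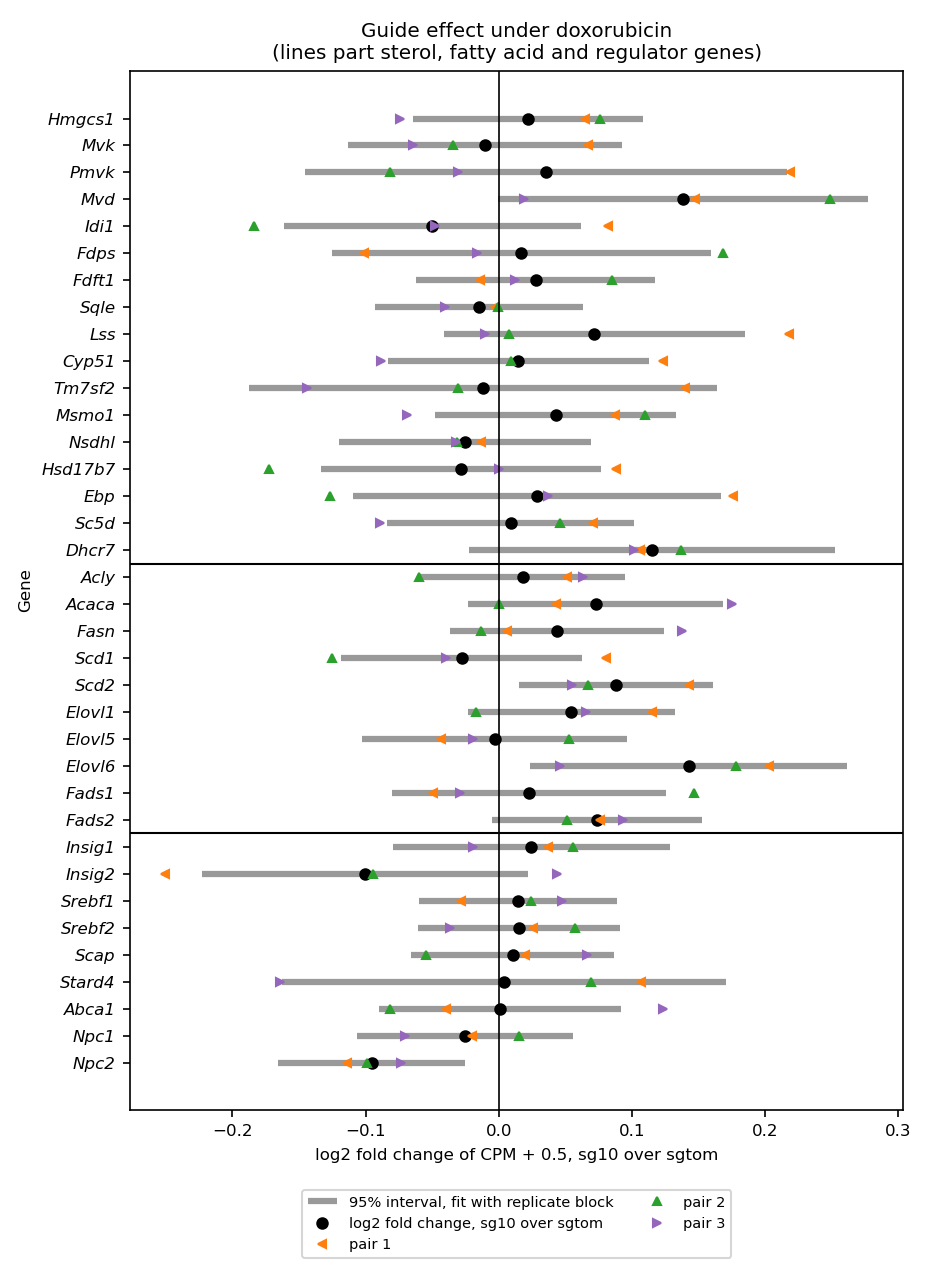
Log2 fold change of sg10 over sgtom (horizontal axis, on log2 of CPM + 0.5) for each of the 36 genes, with a black point for the fold change, coloured symbols for the 3 pairs of equal replicate number and bars for the 95% interval from the fit with replicate number as a block. Fold changes run from −0.10 (Insig2) to 0.14 (Elovl6), and no gene passed the threshold.

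The enzymes of sterol synthesis showed no common direction between guides. Of 17, 11 were higher with sg10 and 6 lower, with a median log2 fold change of 0.02. Within pairs 1, 2 and 3 the median was 0.09, 0.01 and −0.03, so its sign differed between pairs. Leaving out 1 library, which breaks a pair, turned it to −0.10 (without sgtom replicate 1) or −0.047 (without sg10 replicate 3), and raised it to 0.11 (without sg10 replicate 1) or 0.13 (without sgtom replicate 3). Mvd and Dhcr7 were higher with sg10 in 3 of 3 pairs and Sqle and Nsdhl lower in 3 of 3, Sqle and Nsdhl by no more than 0.04 on the log2 scale.

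At the entry to the pathway, Hmgcs1, which makes HMG-CoA, had 62.0, 75.8 and 76.2 CPM with sg10 (replicates 1, 2 and 3, as in all such lists), against 59.3, 71.9 and 80.2 CPM with sgtom. The groups overlapped, and in both the library of replicate 1 was the lowest (log2 fold change 0.02, blocked adjusted p = 0.941, limma). Mvd, which decarboxylates mevalonate diphosphate to isopentenyl diphosphate, had 14.4, 16.9 and 15.8 CPM with sg10, against 12.9, 14.1 and 15.5 CPM with sgtom. It had the highest fold change of the sterol enzymes, 0.14 with a standard error of 0.064 in the blocked fit, and its adjusted p there was 0.738. Idi1, which interconverts the isoprenoid building blocks, had 33.8, 39.1 and 56.5 CPM with sg10, against 31.9, 44.5 and 58.4 CPM with sgtom. The spread inside each guide was far wider than the gap between guides (log2 fold change −0.05, blocked adjusted p = 0.895).

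Squalene epoxidase, Sqle, an oxygen-dependent and rate-limiting step, had 53.6, 57.5 and 72.6 CPM with sg10, against 53.8, 57.6 and 74.7 CPM with sgtom. Equal replicate numbers gave nearly equal levels, and the log2 fold change was −0.01 (blocked adjusted p = 0.959). Lss, which closes squalene epoxide into lanosterol, had 34.4, 36.7 and 36.9 CPM with sg10, against 29.5, 36.5 and 37.2 CPM with sgtom. The sgtom library of replicate 1 stood below the other 5 libraries, and the log2 fold change was 0.07 (blocked adjusted p = 0.820).

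Downstream of lanosterol, Msmo1, a C4-demethylating oxidase, had 67.9, 70.4 and 83.5 CPM with sg10, against 63.9, 65.2 and 87.6 CPM with sgtom. Hsd17b7, a sterol ketoreductase and the most abundant of the sterol enzymes by CPM, had 66.2, 72.4 and 88.5 CPM with sg10, against 62.2, 81.6 and 88.5 CPM with sgtom. Both genes overlapped between guides and were highest in replicate 3 of each, with blocked adjusted p of 0.885 for Msmo1 and 0.937 for Hsd17b7. Dhcr7, the last reductase before cholesterol, had 11.7, 12.4 and 12.9 CPM with sg10, against 10.9, 11.3 and 11.96 CPM with sgtom. It was higher in each pair, by 0.10 to 0.14 on the log2 scale, but the groups overlapped and the blocked adjusted p was 0.758. The other 9 sterol enzymes (Mvk, Pmvk, Fdps, Fdft1, Cyp51, Tm7sf2, Nsdhl, Ebp and Sc5d) had mean levels of 7.59 to 50.8 CPM and fold changes between −0.03 and 0.04.

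Most fatty acid enzymes had slightly higher levels with sg10, with none past the threshold. Of 10, 8 were higher with sg10 and 2, Scd1 and Elovl5, lower, with a median log2 fold change of 0.05 and pair medians of 0.06, 0.03 and 0.06. Scd2, Elovl6, Fads2 and Acaca were higher in 3 of 3 pairs and none was lower in 3 of 3. The median was −0.045 without sgtom replicate 1, −0.021 without sg10 replicate 3, 0.18 without sg10 replicate 1 and 0.16 without sgtom replicate 3.

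Acly, which splits citrate to supply acetyl-CoA, had 218, 229 and 276 CPM with sg10, against 210.3, 239 and 264 CPM with sgtom. Acaca, the carboxylase that makes malonyl-CoA, had 37.5, 47.4 and 56.4 CPM with sg10, against 36.3, 47.4 and 49.9 CPM with sgtom. The libraries of replicate 2 were equal to 3 digits, and the log2 difference was 0.043 in pair 1 and 0.17 in pair 3 (log2 fold change 0.07, blocked adjusted p = 0.778). Fasn, the synthase that builds palmitate, had 250.1, 315 and 416 CPM with sg10, against 249, 318 and 378 CPM with sgtom, with pair differences of 0.0065, −0.014 and 0.14 on the log2 scale (log2 fold change 0.04, blocked adjusted p = 0.855).

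Scd1 and Scd2 desaturate stearate to oleate, and as related paralogs they could share some reads. Scd1 had 66.0, 97.2 and 115 CPM with sg10, against 62.4, 106 and 118 CPM with sgtom (log2 fold change −0.03). Scd2 had 136, 234 and 204 CPM with sg10, against 123, 224 and 197 CPM with sgtom. Scd2 was higher with sg10 in each pair, by 0.05 to 0.14 on the log2 scale, with a fold change of 0.09 (95% interval 0.02 to 0.16 with the block, unadjusted p = 0.0220, adjusted p = 0.684, limma). Elovl6, which lengthens palmitate to stearate, had 18.7, 23.5 and 24.3 CPM with sg10, against 16.2, 20.7 and 23.6 CPM with sgtom. It was higher in each pair, by 0.05 to 0.20 (fold change 0.14, interval 0.02 to 0.26, unadjusted p = 0.0226, adjusted p = 0.688). Fads2, the delta-6 desaturase of polyunsaturated fatty acids, had 53.2, 57.7 and 68.6 CPM with sg10, against 50.4, 55.7 and 64.2 CPM with sgtom, and its fold change was 0.07 (adjusted p = 0.742). For each of these genes the groups overlapped, because replicates differed more than guides.

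The regulators showed no common direction between guides. Of 9, 6 were higher with sg10 and 3 lower, with a median log2 fold change of 0.0039, which was −0.0072 with edgeR. Srebf1, whose SREBP-1c product favours fatty acid genes, had 106, 90.2 and 96.1 CPM with sg10, against 108, 88.8 and 93.0 CPM with sgtom. Srebf2, which favours cholesterol genes, had 81.5, 93.2 and 107 CPM with sg10, against 80.1, 89.5 and 109.8 CPM with sgtom. Both differed by 0.02 or less on the log2 scale between guides, with blocked 95% intervals of −0.06 to 0.09.

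Insig1, itself a classical SREBP target, had 25.7, 25.1 and 27.7 CPM with sg10, against 25.1, 24.2 and 28.1 CPM with sgtom (fold change 0.02). Insig2, which retains the Scap complex too but is not driven by SREBPs in the same way, had 33.1, 34.8 and 31.0 CPM with sg10, against 39.5, 37.2 and 30.1 CPM with sgtom. It was lower with sg10 in replicates 1 and 2 and higher in replicate 3 (fold change −0.10, blocked adjusted p = 0.758). Abca1, a target of liver X receptors as well as the exporter named above, had 146, 149.7 and 139.9 CPM with sg10, against 150.2, 158 and 128 CPM with sgtom. Its fold change was 0.00075, with a blocked 95% interval of −0.09 to 0.09.

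Late endosomes and lysosomes release cholesterol from lipoproteins through Npc2, a soluble carrier, and Npc1, the membrane protein that takes it over. Npc1 had 62.1, 60.1 and 50.1 CPM with sg10, against 63.0, 59.5 and 52.6 CPM with sgtom (fold change −0.03). Npc2, the most abundant of the 36 genes, had 1086, 951 and 948 CPM with sg10, against 1175, 1019 and 998 CPM with sgtom. It was lower with sg10 in 3 of 3 pairs, by 0.07 to 0.11 on the log2 scale, with overlapping groups. Its fold change was −0.10 (95% interval −0.17 to −0.03 with the block), with the smallest unadjusted p of the set, 0.0117, and an adjusted p of 0.672. Scap, and Stard4, which moves cholesterol between membranes, did not part the guides either. Scap averaged 141 ± 8.0 CPM with sg10 and 139.6 ± 3.97 CPM with sgtom (SD, n = 3 each), and Stard4 averaged 9.64 ± 1.87 CPM with sg10 and 9.77 ± 2.91 CPM with sgtom.

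**Figure D3:**
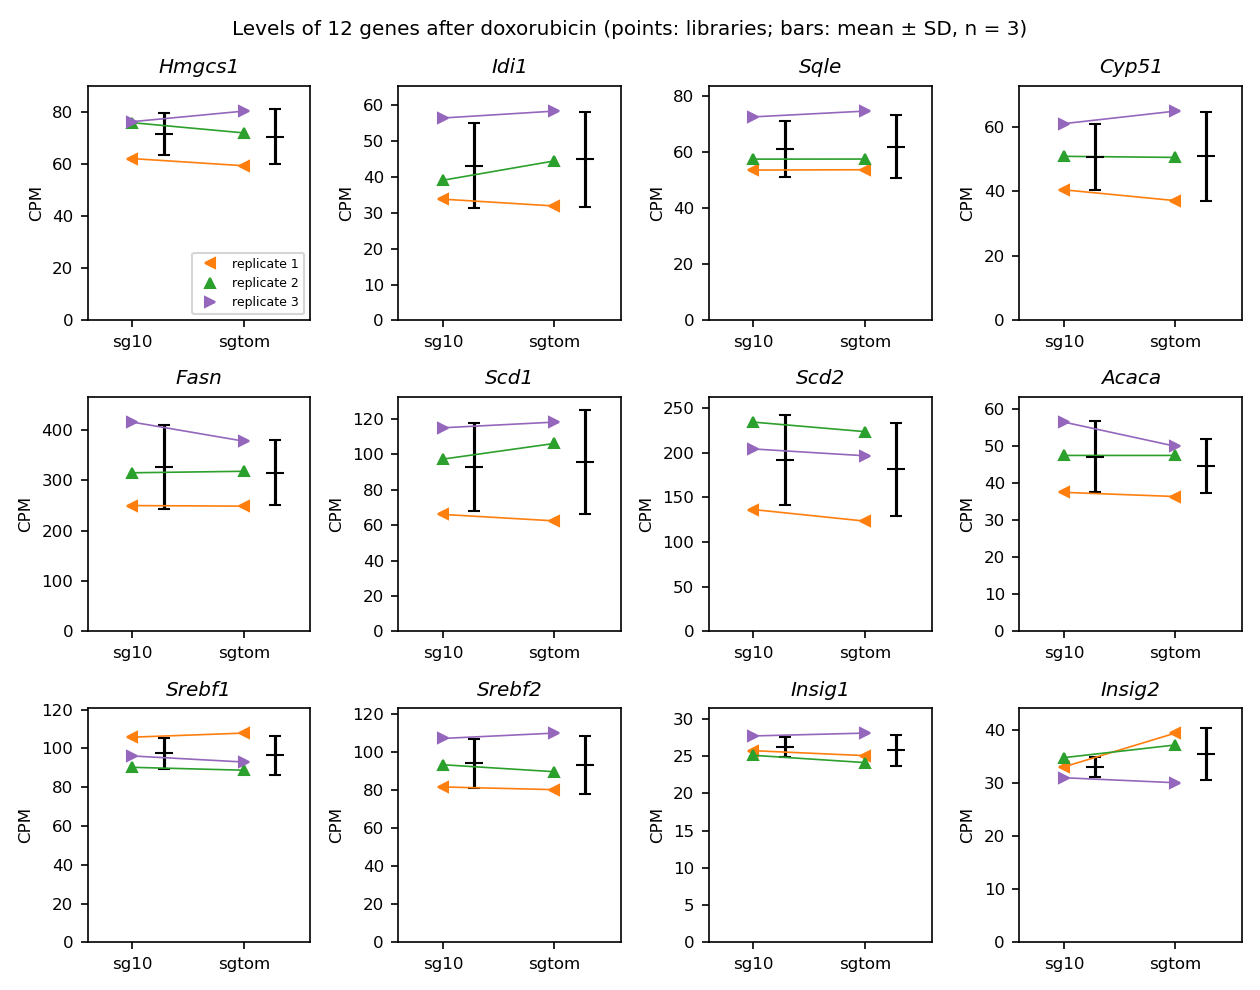
CPM of single genes in each of the 6 libraries (vertical axis, from 0), with sg10 left of sgtom, lines joining equal replicate numbers and, right of each guide, its mean ± SD (n = 3). The guides overlap in each panel, and libraries of equal replicate number lie at similar heights.

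Set against gene length, in CPM per kb of merged exon, the mean levels over the 6 libraries were led by Npc2 (189), Elovl1 (53.2), Acly (45.3), Scd2 (34.1) and Fasn (29.3). The highest sterol enzymes on this scale were Hmgcs1 (15.4) and Hsd17b7 (15.0), which differed by less than their spread over libraries. Dhcr7 (2.04), Tm7sf2 (1.77) and Stard4 (1.74) were lowest. Some exons overlap another annotated gene, by 26.7% of the exon length in Fdps, 18.3% in Fdft1, 13.2% in Scap, and 12.1% in both Hmgcs1 and Tm7sf2, so reads there could be split or lost. The strand setting of the counting is not given in the sources used here.

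Unlike the guide, the replicate number separated the lipid genes widely, and the sterol and fatty acid enzymes moved the same way. Replicate 1 was the lowest in both guides for 15 of 17 sterol and 10 of 10 fatty acid enzymes, and replicate 3 the highest in both for 13 sterol and 8 fatty acid enzymes. The share of all genes with such an order was not counted. Libraries of equal replicate number varied together across all genes, so these counts alone do not set the enzymes apart. In the limma fit with guide and replicate number, 28 of the 36 differed between replicate numbers, against 48.6% of all genes. Among genes with a mean of at least 5 CPM, which include all 36, 53% differed, and again 28 of the 36. They were 12 of 17 sterol enzymes, 9 of 10 fatty acid enzymes and 7 of 9 regulators and transporters. The count was 18 of 36 without replicate 1, where 22.4% of all genes passed, and 18 of 36 without replicate 3, where 34.5% did. The 8 that did not pass were Mvd, Tm7sf2, Ebp, Sc5d, Dhcr7, Elovl5, Insig1 and Scap. Replicate number held a median of 93.3% of a gene's variance over the 36, against 80.5% over all genes, and the guide 0.634%, against 3.94%. What a number marks is not stated, and it may stand for a culture, an embryo or a day.

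**Figure D4:**
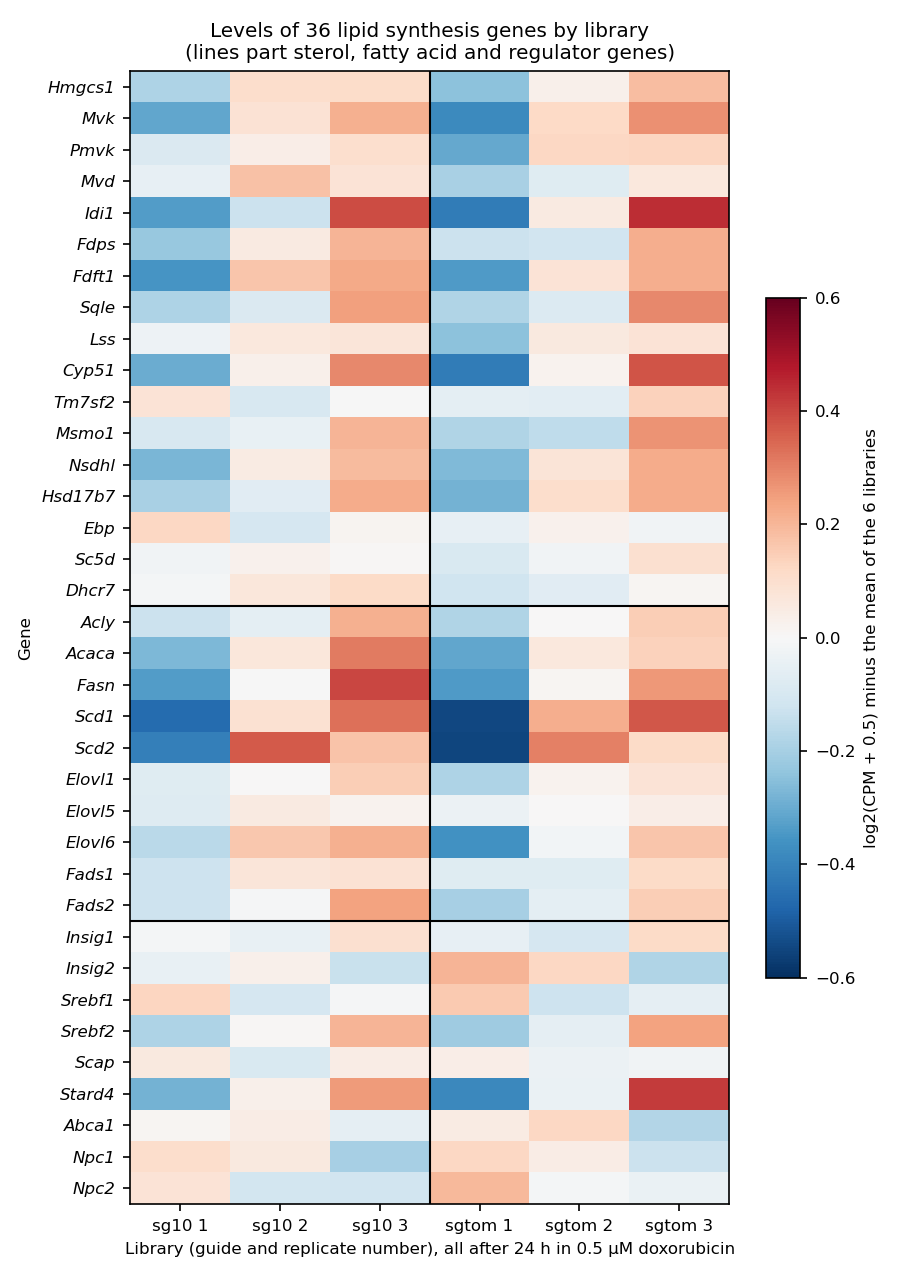
Level of each of the 36 genes (rows) in each library (columns, sg10 left of sgtom), as log2 of CPM + 0.5 minus the mean of the gene over the 6 libraries, with red above and blue below the mean. Replicate 1 is blue in both guides for most sterol and fatty acid enzymes, whereas Srebf1 and Npc2 are red there.

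Between replicates 3 and 1, 12 sterol enzymes were higher in replicate 3 and 0 lower at an adjusted p under 0.05, with a median log2 difference of 0.38 beside −0.0080 for all genes. For fatty acid enzymes the counts were 9 higher and 0 lower, with a median of 0.40. Over all genes, 20.5% were higher and 19.8% lower. Averaged over guides, Scd1 stood at 116 CPM in replicate 3 and 64.2 CPM in replicate 1, a 1.81-fold level. Fasn was at 397 CPM in replicate 3 and 249.5 CPM in replicate 1 (1.59-fold). Idi1 was at 57.5 CPM in replicate 3 and 32.9 CPM in replicate 1 (1.75-fold), and Cyp51, the lanosterol demethylase, at 62.9 CPM in replicate 3 and 38.8 CPM in replicate 1 (1.62-fold).

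Replicate 2 also stood above replicate 1, with 9 sterol enzymes higher and 0 lower (median 0.20) and 8 fatty acid enzymes higher and 0 lower (median 0.24), where 20.0% of all genes were higher and 19.1% lower. Scd2 differed most here, with 229 CPM in replicate 2 and 129.9 CPM in replicate 1 (1.76-fold). Mvk and Fdft1, a kinase and the squalene synthase, were 1.37-fold and 1.39-fold higher in replicate 2. Between replicates 3 and 2 the gaps were smaller, with 5 sterol enzymes higher and 0 lower and 4 fatty acid enzymes higher and 1, Scd2, lower, against 8.38% and 7.13% of all genes. The 5 sterol enzymes were Idi1, Sqle, Cyp51, Msmo1 and Hsd17b7, which were between 1.15-fold (Hsd17b7) and 1.37-fold (Idi1) higher in replicate 3.

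The regulators and transporters were split between replicate numbers. Srebf2 and Stard4 were higher in replicate 3 than in replicate 1, by 1.34-fold and 1.64-fold, and both passed the threshold in all 3 contrasts between replicate numbers. Srebf1 instead was lower in replicate 2 (0.838-fold) and in replicate 3 (0.885-fold) than in replicate 1. Npc2 was 0.861-fold, Npc1 0.821-fold, Insig2 0.843-fold and Abca1 0.905-fold in replicate 3 relative to replicate 1, each past the threshold. Insig1 and Scap did not pass. For replicate 2 over 1, 2 of the 9 were higher and 2 lower, against 20.0% and 19.1% of all genes. For 3 over 1, 2 were higher and 5 lower, against 20.5% and 19.8% of all genes. For 3 over 2, 2 were higher and 3 lower, against 8.38% and 7.13% of all genes. The medians of the 3 role groups kept their sign in all 3 contrasts with quantile normalization and with median centring, where the median of all genes lay between −0.01 and 0.01.

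**Figure D5:**
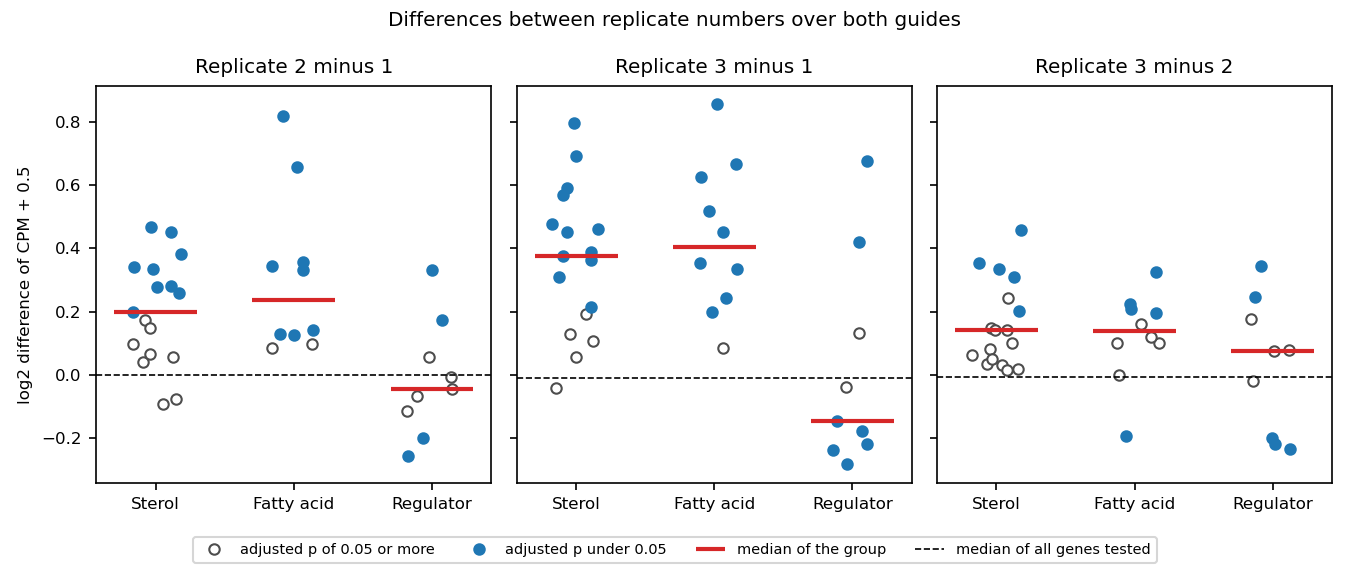
Log2 differences (vertical axis) between replicate numbers over both guides for sterol enzymes, fatty acid enzymes and regulators, 1 point a gene, filled where the adjusted p was under 0.05. Replicate 3 minus 1 has medians of 0.38, 0.40 and −0.14 for the 3 groups, and no filled sterol or fatty acid point lies below 0 in that panel.

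Markers of macrophages and adipocytes stood higher in replicate 1. The summed level of 10 macrophage markers, all 10 of them listed, was 314 CPM in replicate 1, 96.3 in 2 and 122 in 3 with sg10, against 203, 102 and 119.9 CPM with sgtom. Lyz2, the most abundant of them, had 139.9 and 83.1 CPM in the replicate 1 libraries of sg10 and sgtom and between 32.6 and 44.2 CPM in the other 4. Of 8 adipocyte markers 5 were listed, summing to 119, 43.1 and 51.3 CPM with sg10, against 106, 47.0 and 50.9 CPM with sgtom. Lpl made much of that gap, with 42.1 and 31.8 CPM in the replicate 1 libraries of sg10 and sgtom and between 3.64 and 4.88 CPM in the others. Adipoq, which defines mature adipocytes, stayed between 0.136 and 0.260 CPM in all 6 libraries. Endothelial markers summed to 72.7, 49.2 and 69.6 CPM with sg10, against 68.9, 58.7 and 66.0 CPM with sgtom, with replicate 1 close to replicate 3. The 3 epithelial markers listed of 4 summed to 2.18, 2.74 and 4.72 CPM with sg10, against 2.35, 3.60 and 5.37 CPM with sgtom. That order came from Krt18, with 1.34, 2.01 and 3.67 CPM with sg10, against 1.44, 2.68 and 4.54 CPM with sgtom. Epcam and Cdh1 stayed at 0.605 CPM or less. Cdh1 was highest in replicate 1 with sg10, and Epcam was highest in replicate 1 with sgtom. Single fibroblast markers, whose sum was mostly Fn1, went both ways between replicate numbers. Thy1 was lowest in replicate 1, with 222, 391 and 371 CPM with sg10, against 190, 429 and 409 CPM with sgtom. Col3a1 was highest there, with 753, 691 and 366 CPM with sg10, against 661, 516 and 425 CPM with sgtom. The part of any of these cell types in the replicate differences was not tested.

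A wider list of 46 genes of the same pathways, of which 44 were tested, gave the surroundings of the 36. Limma called 0 of the 44 between guides without or with the block, against 0% and 0.0346% of all genes. In the blocked fit 3 of the 44 had an unadjusted p under 0.05, against 6.68% of all genes. By direction 17 were higher with sg10 and 27 lower, where 49.7% of all genes were higher. Their median log2 fold change was −0.02. Me1, a malic enzyme that supplies NADPH for lipid synthesis, had 151, 120.2 and 132 CPM with sg10, against 168, 132 and 135 CPM with sgtom (fold change −0.11, blocked adjusted p = 0.663). Acsl4, which activates polyunsaturated fatty acids, had 40.0, 66.1 and 73.4 CPM with sg10, against 40.6, 76.7 and 80.4 CPM with sgtom (fold change −0.12, adjusted p = 0.678). Vldlr, a lipoprotein receptor, had 41.4, 23.4 and 25.0 CPM with sg10, against 44.7, 25.0 and 26.5 CPM with sgtom (fold change −0.09, adjusted p = 0.738). The most abundant gene of the list was Lrp1, a large endocytic receptor, with 1880 ± 716 CPM with sg10 and 1848 ± 409.6 CPM with sgtom (SD, n = 3 each).

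Between replicate numbers the wider list was split. Of the 44, 28 passed, against 48.6% of all genes, with 17 higher and 11 lower in replicate 3 than in replicate 1 (20.5% and 19.8% of all genes) and a median log2 difference of 0.06. Acsl4 was 1.91-fold higher in replicate 3, whereas Vldlr stood at 0.598-fold and Me1 at 0.838-fold of their levels in replicate 1.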

How the data were processed

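RNA was measured in 6 libraries of polyadenylated RNA, prepared by a strand-specific TruSeq kit (per the labels' protocols). The submitters' processing notes list the build mm10, edgeR 3.22.3, HTSeq 0.6.1, StringTie 1.2.4 and TopHat2 2.0.14, without a strand setting, filter or pairing. The values tested are the CPM per gene and library deposited by the authors, whose divisor is a scaled library size. The authors' deposited table also gives their log2 fold change and p-value for each gene, of which only p-values are quoted. The 6 per-sample columns of pseudo-counts were not used. Entries that name no gene (2 of 16427) were removed: reads outside genes were 8.06% to 8.94% and ambiguous reads 0.543% to 1.58% of a library.

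Limma 3.58.1 (R 4.3.3, trend and robust empirical Bayes) was fitted to log2(CPM + 0.5) of 14440 genes (those reaching 0.5 CPM in 3 or more libraries), with Benjamini-Hochberg adjustment over all of them and a threshold of 0.05. Fold changes are sg10 over sgtom on that scale and understate changes of low genes. The fit had 4 residual degrees of freedom without and 2 with replicate number as a block (the blocked fit). Deviations from group means correlated at 0.869, 0.739 and 0.817 across genes for equal replicate numbers and no higher than 0.203 otherwise, so the numbers were taken to pair the libraries. The replicate number effect was an F test in the fit with guide. Without the block, p-values rest on the spread between these libraries within a guide. In the blocked fit they rest on the spread left after guide and replicate number are taken out. Recovered reads (100% of values whole within 0.01 reads) were tested with edgeR 4.0.16 and DESeq2 1.42.0. The fits were tested on simulated data. Exons are from GENCODE M21 and promoters from RefSeq (GRCm38.p6).

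The 36 genes, the lists and the tests were chosen with earlier results of these data known. Values per library are given for members past the threshold, the 4 with the smallest blocked p and the 2 with the highest mean in each role, and 10 fixed members. Of the wider list, 3 of the 4 genes with the smallest blocked p and the most abundant gene are named.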

Additional observations from a re-analysis of the deposited data

How the results depend on the processing

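Over 22 alternatives (scaling, filters, pseudocounts, limma without trend, edgeR, DESeq2, the block and each library or replicate left out), 0 of 792 comparisons of a single lipid gene between guides passed the threshold, and the sign changed in 117 of them, over 32 genes. With the replicate block the count of genes called went to 5 of all genes (5 also with edgeR or quantile normalization) and 0 of the 36, and DESeq2 called 1 gene. In the blocked fit it was 15, 156 and 8 without replicate 1, 2 and 3. The block changed no call among the 36 and left the medians as they were, 0.02 for sterol, 0.05 for fatty acid and 0.0039 for regulator genes. Leaving out 1 library breaks a pair: the sterol median then ranged from −0.10 (without sgtom replicate 1) to 0.13 (without sgtom replicate 3), and also turned negative without sg10 replicate 3 (−0.05). The fatty acid median ranged from −0.045 (without sgtom replicate 1) to 0.18 (without sg10 replicate 1), was −0.021 without sg10 replicate 3, and was 0.078 in the blocked fit without replicate 2. The regulator median ranged from −0.017 (without sg10 replicate 1) to 0.0066 (without sgtom replicate 1), and was −0.0072 with edgeR and −0.0069 with DESeq2. In these unpaired sets the low libraries of replicate 1 or the high ones of replicate 3 weigh on 1 guide only. The count of lipid genes that differed between replicate numbers, 28, was 18 without replicate 1 (22.4% of all genes), 30 without replicate 2 (48.6%), 18 without replicate 3 (34.5%) and 19 by limma without trend (30.0%). Median centring for the replicate effect was chosen after seeing the data. The lowest count of a lipid gene in a library was 347 reads, and what depth limits for such genes was not tested. The number of libraries, 3 a guide, limits the precision.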
